A study of Saccharomyces cerevisiae with 109 samples.

Results

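The genes described here encode the protein subunits of the mitochondrial ribosome in the budding yeast Saccharomyces cerevisiae. They were taken by name: a nuclear gene was a member if its symbol in the R64 annotation began with MRPL, MRPS, RSM or MRP followed directly by digits, with MRP8 left out. This gave 66 members of 5876 nuclear protein-coding genes measured, 38 of the large and 28 of the small subunit. Every culture was of the W303 background, haploid and MATa. Those at 1 °C and 5 °C had spent 2 weeks at their temperature before the uracil analog 4-thiouracil (4tU) was given. The main text of the paper gives no separate time for cultures at 30 °C. Cultures at 30 °C and low GSH cultures at 1 °C and 5 °C had no added glutathione (GSH), a thiol that protects cells against oxidation. High GSH cultures at 1 °C and 5 °C had 250 µM of it. Cells build 4tU into new RNA, which can then be pulled out of total RNA. Steady-state libraries hold all RNA, and labelled libraries are meant to hold RNA made since 4tU was added. Labelled libraries taken at 0 min and 30 °C still held reads of many members, so some RNA without label was carried over. Its part in the results below was not tested. Labelled RNA was sampled at 0, 6, 12, 24, 48 and 96 h at 1 °C, at 0, 1.5, 3, 6, 12, 24, 48 and 96 h at 5 °C, and at 0, 5, 10 and 20 min at 30 °C.

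The mitochondrial ribosome makes the few proteins that the mitochondrial genome encodes, most of which are core subunits of the respiratory chain and the ATP synthase. Apart from Var1, its proteins are encoded in the nucleus: their mRNAs are translated in the cytosol and the proteins are imported, while its ribosomal RNAs are made inside the organelle. In yeast, many nuclear mRNAs for mitochondrial proteins carry a short element after the stop codon. Puf3, an RNA-binding protein of the Pumilio family, binds it and has known roles in the decay and the translation of these mRNAs.

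Each of the 5 conditions had 3 biological replicates, which made 15 steady-state and 94 labelled libraries. High GSH replicate 1 at 5 °C had no library at 3 h or 12 h among those used here. RNA of Schizosaccharomyces pombe, labelled with 4tU, had been added as a spike-in. The steady-state libraries held 7791032 to 32634257 estimated mRNA reads, and those at 6 h and 48 h held 11551721 to 47877835. The shallowest library, replicate 1 at 5 min and 30 °C, held 18937 and entered no test. No pair of libraries was identical (0 pairs), and no sequencing batch is given in the sources used here, so temperature and processing cannot be told apart. Of the markers of the MATa strain, 5 of 5 were detected in every condition, with a summed level of 1846 to 2279 at 30 °C, 3420 to 4173 at 5 °C low GSH and 2355 to 3890 at 1 °C low GSH, in TPM over nuclear protein-coding genes. The 4 markers of the other mating type, MATalpha, summed to 9.19 to 13.4 at 30 °C but to 73.0 to 113.5 at 5 °C and 104.3 to 222.5 at 1 °C low GSH. The pheromone gene MF(ALPHA)1 had the largest part in the cold, with means of 69.2 (5 °C) and 117 (1 °C) against 1.29 (30 °C). Its part in the results below was not tested.

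The members were alike in the sequence that follows their stop codon. Within 200 bases after the stop, on the coding strand, 65 of 66 members (98.5%) held the letters TGTANATA, the DNA form of the element bound by Puf3, against 778 of 5810 other genes (13.4%) and 14.35% of all genes. The first 100 bases held it in 60 members (90.9%) and 9.43% of other genes. RSM22, the one member without a match, encodes a methyltransferase-like protein needed for assembly of the small subunit and is the only one of the 66 that has no name in the shared ribosomal protein nomenclature. The sites of the members that led the results below are shown, 5′ to 3′ on the coding strand, with the element in capitals and up to 11 flanking bases on each side, from the R64 genome. RSM19 is added because it was the only member with 3 sites.
MRPL33, chrXIII:842249-842278, plus strand: tgacttatataTGTATATAgtattattttt
MRPL33, chrXIII:842356-842385, plus strand: tattttatgtaTGTATATAtttacaagaag
MRPS16, chrXVI:528881-528910, minus strand: tatgtatatgtTGTATATAtgttttacttg
MRPS16, chrXVI:528840-528869, minus strand: tctatcagactTGTAAATAatacatctatg
RSM27, chrVII:922547-922576, plus strand: aactcatttcaTGTACATAcaaaatcaaaa
MRPL32, chrIII:119206-119235, plus strand: aaacttaagccTGTATATAgaaacttaatt
MRPL40, chrXVI:224133-224162, plus strand: tatattcgaccTGTATATAtgaaagcataa
MRP10, chrIV:372580-372609, plus strand: agtcatggcctTGTATATAcaaattaaata
MRP21, chrII:49401-49430, plus strand: atttccgtcttTGTAAATAggtaatgcgta
MRPL39, chrXIII:251207-251236, minus strand: ttcatttatccTGTAAATAagtaatggata
RSM26, chrX:619111-619140, plus strand: atcttatatacTGTAAATAgttttatttta
RSM19, chrXIV:695024-695051, minus strand: gggatctagTGTATATAgatttctagat
RSM19, chrXIV:694996-695025, minus strand: atgatatatcaTGTAAATAagatcaagcca
RSM19, chrXIV:694968-694997, minus strand: cagactcgggcTGTATATAtatatatatat

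**Figure D1:**
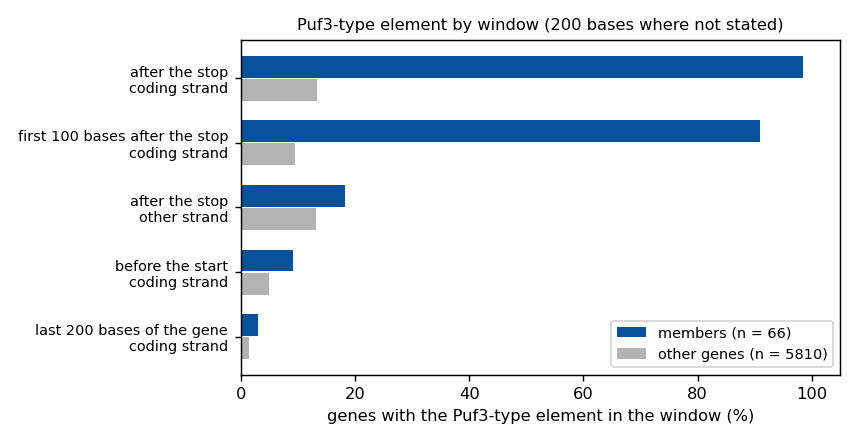
Share of genes (%) that hold the Puf3-type element in each window, for the 66 members and the 5810 other genes. The bars of the members stand at 98.5% and 90.9% after the stop on the coding strand, and at 18.2% or below in the other windows.

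Most members had a single site (52 members), and 12 had 2. The open base of the element was A in 36, T in 25, C in 17 and G in 1 of the 79 member sites, whereas T led in other genes, with 427 of 834 sites. A cytosine 1 or 2 bases before the element was present at 63 member sites (79.7%) and at 35.1% of sites in other genes. The member sites began at a median of 55 bases after the stop (8 to 165), and those of other genes at a median of 62. Outside this window and strand the members were nearer to other genes: 12 of 66 (18.2%) had the element on the other strand after the stop, against 13.1% of other genes, 6 (9.09%) had it in the 200 bases before the start, against 5.01%, and 2 (3.03%) had it in the last 200 bases of the gene, against 1.53%. Motifs searched on both strands in the 250 bases before the start codon were not more frequent in the members. CCAAT, the core of the site of the HAP activator of respiratory genes, was present in 20 members (30.3%) and 35.9% of all genes. AAAATTTT, the core of an element known before many genes of rRNA processing, was present in 2 members (3.03%) and 8.82% of all genes. GATGAG, the core of an element known before genes of RNA polymerases and ribosome synthesis, was present in 10 members (15.2%) and 16.4% of all genes. These matches are descriptions of the letters, and carry no statement on binding. The members lay on 14 chromosomes, MRPL44 was the only one with an intron in its coding region, and their coding length had a median of 706.5 bases (213 to 1887) against 1185 for all genes.

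The members took a larger share of steady-state mRNA in the cold than at 30 °C, and the share was largest at 1 °C. A rise against 30 °C was not particular to them. As a percentage of the TPM of nuclear protein-coding genes, they summed to 0.641, 0.608 and 0.603% in the replicates at 30 °C. It was 0.771, 0.800 and 0.804% at 5 °C low GSH and 1.18, 1.21 and 1.12% at 1 °C low GSH. The 3 temperatures did not overlap. In high GSH the share was 0.739, 0.793 and 0.789% at 5 °C and 1.19, 1.12 and 1.15% at 1 °C, which overlapped with low GSH at each temperature. The low GSH means were 0.617 ± 0.0209% (30 °C), 0.7915 ± 0.0182% (5 °C) and 1.17 ± 0.0461% (1 °C; SD, n = 3), a ratio of 1.90 between 1 °C and 30 °C, of 1.28 between 5 °C and 30 °C, and of 1.48 between 1 °C and 5 °C. The typical gene rose too: with low GSH, the median TPM of all genes went from 37.6 (30 °C) to 59.4 (5 °C) and 66.9 (1 °C). For the median member these values were 87.9, 103.3 and 151.6. In proportion, the member median thus rose less than the all-gene median from 30 °C to 5 °C. From 30 °C to 1 °C the rises were alike, and only from 5 °C to 1 °C was that of the members larger. The large subunit held 0.683% and the small subunit 0.489% at 1 °C, and both shares were above those at 5 °C (0.462% and 0.329%). Counted as reads in place of TPM, the shares were 0.609 ± 0.0293% at 1 °C, 0.372 ± 0.0125% at 5 °C and 0.361 ± 0.0272% at 30 °C, so that 5 °C and 30 °C then differed by less than the SD between replicates. In bulk RNA, fewer cells and less RNA per cell cannot be told apart.

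**Figure D2:**
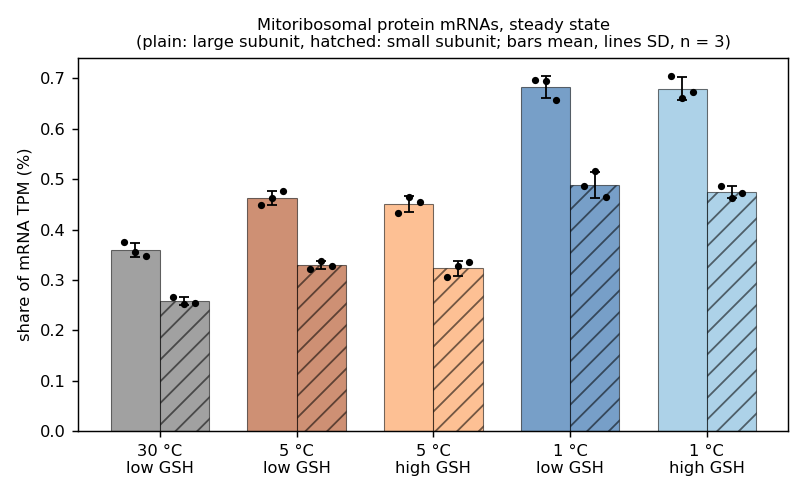
Share of mRNA TPM (%) taken by the 38 large and the 28 small subunit genes in each steady-state condition (points: 3 libraries, bars: mean, lines: SD). Both subunits stand lowest at 30 °C and highest at 1 °C, where the large subunit is at 0.683% and the small at 0.489% in low GSH.

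The members were not expressed at one level. Levels are given from here on as TPM recomputed over nuclear protein-coding genes alone, corrected for coding length. Unless another scaling is named, log2 fold changes are centred on the bulk of the genes (the TMM scale). They need not equal the ratio of these levels. At 30 °C they ranged 10.4-fold, with a median of 87.9 against 37.6 for all genes. The highest were MRPL39 (bL33) at 248.8, MRPS12 (uS12, a protein of the decoding site) at 215.1, MRPL33 (uL30) at 184.3, RSM19 (uS19) at 161.9 and MRPL36 (bL31) at 156.4. MRPL39 varied from 193 to 296 over the 3 libraries, which takes in all 3 values of MRPS12 (204 to 221), so these neighbours did not differ beyond their spread. The lowest were MRPL4 (uL29) at 24.0, RSM22 at 30.6, RSM27 (mS33) at 37.45, RSM23 (mS29) at 38.95 and RSM24 (mS35) at 43.95. The order changed with temperature. MRPL33 was the most abundant member at 5 °C (394.8) and at 1 °C (774.3), where the median member stood at 103.3 and 151.6 (all genes 59.4 and 66.9), and MRPL4 was the lowest at both, at 30.3 and 35.9.

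MRPL33 and MRPS16 are examples of members with a clear separation between temperatures. MRPL33 had levels of 175, 178 and 199 (30 °C), 344, 429 and 411 (5 °C low GSH), and 821.5, 701 and 801 (1 °C low GSH). MRPS16, which encodes the bS16 protein of the small subunit, had 119, 142 and 142 (30 °C), 258, 309 and 292.5 (5 °C), and 539, 519 and 481 (1 °C). For both genes the 3 temperatures did not overlap. RSM27 had 26.9, 39.3 and 46.1 (30 °C), 61.5, 75.1 and 50.7 (5 °C), and 111, 243 and 106 (1 °C). Its temperatures did not overlap either, but replicate 2 at 1 °C was far above the other libraries. MRP21 (bS21) did not keep this order, with 137, 106 and 100.5 (30 °C), 106, 108 and 98.9 (5 °C), and 99.1, 102 and 95.05 (1 °C), and the groups overlapped. RSM22, which lacks the element, kept the order, with 27.0, 30.7 and 34.2 (30 °C), 53.4, 56.1 and 56.2 (5 °C), and 91.8, 93.2 and 74.6 (1 °C).

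At 1 °C the members were higher than at 5 °C. In steady-state mRNA with low GSH, 48 of 66 members were higher at 1 °C and 1 was lower (edgeR quasi-likelihood test, Benjamini-Hochberg adjusted p below 0.05), with a median log2 fold change of 0.44, and 17 did not pass. Of all 5697 genes tested, 29.8% were called higher and 28.9% lower, with a median of 0.04. The subunits moved alike, with 27 of 38 genes of the large and 21 of 28 of the small subunit higher and medians of 0.42 and 0.46. The largest rise was that of RSM27, with a log2 fold change of 1.17 (SE 0.282, adjusted p = 0.00258), or 0.84 without replicate 2. MRPL33 rose by 0.87 (SE 0.0993, adjusted p = 4.63e-06). RSM26 (mS42), a relative of superoxide dismutases, was at 48.2, 48.8 and 63.3 at 5 °C and at 103, 112.5 and 99.4 at 1 °C, a log2 fold change of 0.83. MRPL22 (uL22, which lines the exit tunnel) was at 80.0, 85.6 and 86.5 at 5 °C and at 162, 188.5 and 145 at 1 °C, also 0.83, and neither gene overlapped between temperatures. MRP10 (mS37) was the only member called lower, at −0.51 (SE 0.145, adjusted p = 0.00785), and it did not pass without replicate 1 (adjusted p = 0.0823) or without replicate 2 (adjusted p = 0.0639).

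High GSH cultures gave the same count within a few genes. There, 46 members were higher at 1 °C than at 5 °C and 1 was lower, with a median of 0.44, against 29.0% and 29.8% of all genes, and 44 of the members were higher at both GSH levels. MRPL33 led with 1.14 (SE 0.1001, adjusted p = 3.46e-07), from 369, 401 and 400.2 at 5 °C to 971, 863.5 and 879 at 1 °C. MRPL37 (mL54) followed with 1.04, from 124, 111 and 119 to 243, 255 and 279. MRPL23 (uL13) fell by 0.41 and did not pass without replicate 2 (adjusted p = 0.125) or without replicate 3 (adjusted p = 0.0822). As levels, all 3 libraries at 1 °C lay above all 3 at 5 °C in 59 members with low GSH and in 58 with high GSH, which was so for 43.2% and 42.2% of all genes, and 1 member lay below in each, against 24.8% and 30.4%. Other scalings kept the direction, and moved all genes the same way. When library size was the sum of mRNA reads, 61 members were higher and 0 lower with low GSH, with a median of 0.73. Of all genes 51.1% were higher and 15.6% lower, with a median of 0.33. With the reads of S. pombe as library size all 66 were higher, with a median of 1.76. On that scale 86.4% of all genes were higher, with a median of 1.36. Short genes in general were also higher at 1 °C: the 1348 other genes no longer than the median member had a median of 0.20, and with the trend over coding length removed the members' median was 0.31.

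Between 1 °C and 30 °C the members spread in both directions. On the TMM scale, where fold changes are centred on the bulk of the genes, 26 members were higher at 1 °C, 13 were lower and 27 did not pass, and their median was 0.02, next to 0.03 for all genes. The shares over all 5697 genes were 36.9% higher and 36.4% lower. Without replicate 1, 7 members were lower. When library size was the sum of mRNA reads, 56 members were higher and 1 lower, with a median of 0.63 (all genes 0.64), and with S. pombe reads all 66 were higher, with a median of 2.30 (all genes 2.29). As rescaled TPM, 61 members had all 3 libraries at 1 °C above all 3 at 30 °C and 0 had them below, which was so for 65.7% and 10.96% of all genes. The shorter other genes had a median of −0.25 on the TMM scale, and with the length trend removed the members' median was 0.18.

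The members that rose most on the TMM scale between 30 °C and 1 °C were MRPL33, at 1.34 (SE 0.0996, adjusted p = 2.14e-08), RSM27, at 1.29 (SE 0.277, adjusted p = 0.000711), MRPS16, at 1.19 (SE 0.0954, adjusted p = 4.63e-08), and MRPL40 (uL24), at 0.91 (SE 0.0785, adjusted p = 9.74e-08). MRPL40 was at 40.9, 49.2 and 53.1 at 30 °C and at 158, 159 and 145 at 1 °C, with no overlap. These 4 were also higher under both other scalings. MRP21 was lowest, at −0.996 (SE 0.135, adjusted p = 1.06e-05), followed by MRPL39, at −0.96, MRP10, at −0.71, and MRPL6 (uL6), at −0.50. The direction of these 4 depended on the scaling. With S. pombe reads as library size they had positive values, from 1.29 to 1.79, and with summed mRNA reads MRPL39 was at −0.35 (adjusted p = 0.104), MRP10 at −0.10 (adjusted p = 0.505) and MRPL6 at 0.11.

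Between 5 °C and 30 °C the TMM scale showed the members below the other genes. Of the members, 39 were lower at 5 °C, 6 were higher and 21 did not pass, with a median of −0.31, while 37.9% of all genes were lower and 36.5% higher, with a median of −0.03. With summed mRNA reads as library size the counts were 14 lower and 18 higher, with a median of 0.01. Of all genes 26.0% were lower and 48.8% higher, with a median of 0.29. With S. pombe reads 0 members were lower and 31 higher, with a median of 0.65. All genes then had 6.27% lower and 59.7% higher, with a median of 0.92. Short genes moved the same way: the shorter other genes had a median of −0.46, and with the length trend removed the members' median was −0.03. As rescaled TPM, 42 members had all 5 °C libraries above those at 30 °C and 5 had them below, against 59.9% and 15.5% of all genes. RSM26 fell by 1.18 (SE 0.124, adjusted p = 7.09e-07), from 80.8, 81.75 and 69.0 at 30 °C to 48.2, 48.8 and 63.3 at 5 °C, without overlap. MRPL39 fell by 1.12, MRPS8 (uS8), from 99.2, 83.7 and 85.3 to 63.9, 69.45 and 66.03, by 1.06, and MRP2 (uS14) by 0.90, but with S. pombe reads as library size these 4 did not pass and MRP2 was at 0.06. MRPS16 was higher by 0.48, MRPL33 by 0.47, RSM28 (mS46), from 68.5, 64.8 and 61.65 to 136, 142 and 145, by 0.46, and MRPL40 by 0.27, which did not pass without replicate 1 (0.20, adjusted p = 0.0547). RSM26 thus had its lowest level at 5 °C, where it was below both 30 °C and 1 °C.

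**Figure D3:**
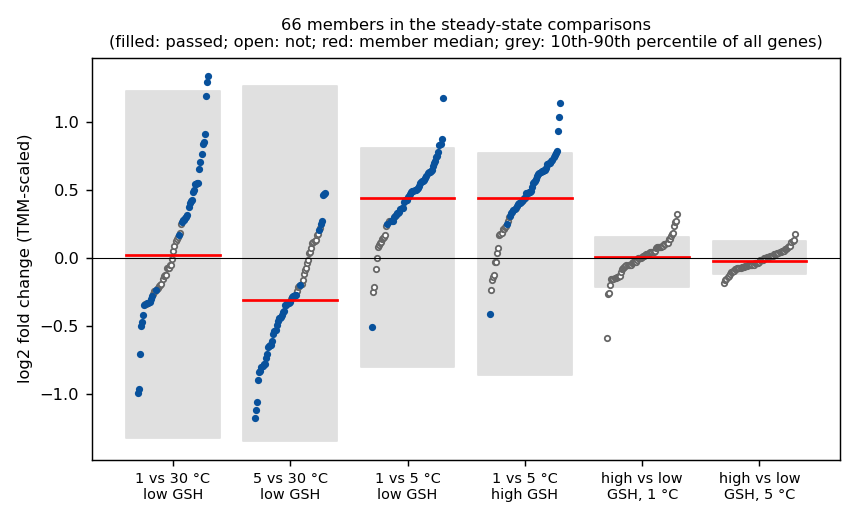
Log2 fold change on the TMM scale of each of the 66 members in the 6 steady-state comparisons, sorted within each (filled: adjusted p below 0.05, open: did not pass). The red lines, the member medians, are at 0.44 in both comparisons of 1 °C with 5 °C, at −0.31 for 5 °C against 30 °C and at 0.02 for 1 °C against 30 °C.

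Added GSH moved no member past the threshold. In steady-state mRNA, 0 of 66 were called between high and low GSH at 1 °C or at 5 °C, as were 0.0% of all genes, higher or lower, and DESeq2 called 0 members as well. At an unadjusted p under 0.05, edgeR had 3 members at 1 °C (5.23% of all genes) and 1 at 5 °C (0.755% of all genes). In labelled mRNA summed over times, 0 members and 0.0% of all genes were called at either temperature. Unadjusted, there were 0 members at both, against 1.51% of all genes at 1 °C and 4.56% at 5 °C, and DESeq2 called 0 members. The median log2 fold changes of the members lay between −0.02 and 0.01 in the 4 comparisons on the TMM scale.

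In labelled mRNA the members took a larger share at 1 °C than at 5 °C, in every culture from 12 h on. With low GSH, the mean share at 1 °C was 1.39 ± 0.263% (SD, n = 3) after 6 h, and 1.54, 1.59, 1.565 and 1.52% after 12, 24, 48 and 96 h. At 5 °C it was 0.928, 1.13, 1.17 and 1.22% after 1.5, 3, 6 and 12 h, and then 1.056, 1.03 and 1.05% after 24, 48 and 96 h. High GSH gave 1.38, 1.53, 1.50, 1.48 and 1.455% over the same times at 1 °C. The widest spread was at 6 h and 1 °C, where the low GSH replicates had 1.625, 1.43 and 1.10%, and replicate 3 lay below all 3 low GSH libraries at 5 °C (1.20, 1.18 and 1.13%). At 30 °C and 20 min the share was 0.8815 ± 0.162% (SD, n = 3). Between 1 °C and 5 °C, all genes were set beside the members only at 6 h with low GSH. With summed mRNA reads as library size, the median log2 fold change was then 0.16 for the members. For all genes it was 0.25, so a larger value at 1 °C was not particular to the members at that time.

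**Figure D4:**
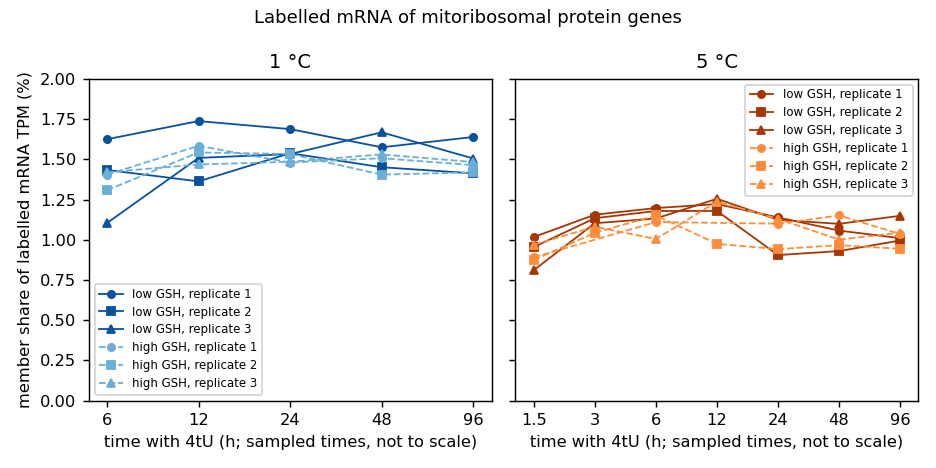
Share of labelled mRNA TPM (%) taken by the 66 members in each culture against time with 4tU, at 1 °C and at 5 °C (points: libraries, solid lines: low GSH, dashed lines: high GSH). From 12 h on every culture at 1 °C lies above every culture at 5 °C, and low GSH replicate 3 at 1 °C starts at 1.10%.

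At 1 °C, member mRNAs continued to gain on other labelled mRNAs between 6 h and 48 h. With low GSH, 38 members were higher at 48 h than at 6 h and 2 were lower, with a median log2 fold change of 0.40, against 25.4% and 24.9% of all 5802 genes and a median of 0.00. Without replicate 3, whose 6 h library stood apart, 19 were higher and 0 lower. With high GSH, 34 were higher and 3 lower, with a median of 0.37, against 26.9% and 26.0% of all genes, and 32 members were higher at both GSH levels. The number lower with high GSH was 1 without replicate 1 and 1 without replicate 3. Short genes gained in general: the 1447 shorter other genes had medians of 0.54 with low and 0.62 with high GSH, above those of the members. The rank correlation with coding length among the 66 members was −0.59 with low GSH (a description, since the members share the libraries), and with the length trend removed the member medians were 0.08 and −0.0064. RSM27 rose most, by 1.82 (SE 0.299, adjusted p = 1.47e-06), from 237, 117 and 129 at 6 h to 377, 454 and 496 at 48 h. MRPL33 was higher by 1.46, MRPL32 (bL32) by 1.407 and MRPS16 by 1.26. MRPL32 was at 154, 86.4 and 70.6 at 6 h and at 192, 203.5 and 247 at 48 h, with no overlap. RSM22 was lower, at 222, 201 and 173 at 6 h and 132, 118 and 124 at 48 h, by −0.33 with low GSH (adjusted p = 0.0216), a call lost without any one of the replicates, and by −0.66 with high GSH (adjusted p = 1.49e-05). RSM22 is also the longest member, with 1887 coding bases.

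At 5 °C most members were not called over the same interval, and the calls went both ways. With low GSH, 5 members were higher at 48 h and 7 lower, with a median of −0.03, against 18.4% and 15.6% of all genes. With high GSH, 9 were higher and 9 lower, with a median of 0.01, against 17.8% and 16.4%. The low GSH counts were 2 higher and 3 lower without replicate 3, with 4 lower without replicate 2. The high GSH counts were 3 higher without replicate 1, 5 higher without replicate 3 and 2 lower without replicate 2. In both, 5 members were higher at both GSH levels and 5 lower at both. MRPL32, MRPL6 and MRPL50 (bL9) were among the 4 highest at both GSH levels, with 0.73, 0.67 and 0.65 in low GSH and 1.01, 0.78 and 0.77 in high GSH. RSM26 and MRPL9 (uL3, at the peptidyl transferase centre) were the lowest at both, at −0.71 and −0.66 in low GSH and −0.73 and −0.76 in high GSH. RSM26 had 145, 128 and 135 (6 h) and 80.8, 69.4 and 63.0 (48 h), and MRPL9 had 221, 206 and 208.5 (6 h) and 120, 107 and 117 (48 h), and neither overlapped. Each of these fold changes is relative to the other labelled mRNAs of the library. Scaled to S. pombe reads, labelled mRNA with low GSH was higher at 48 h in 66 members at 1 °C and 25 at 5 °C. It was lower in 0 at both, with medians of 1.92 and 0.80. Of all genes, 85.6% and 42.5% were higher on that scale, with medians of 1.48 and 0.85.

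The change from 6 h to 48 h was tested for a difference between temperatures. The signed log2 change was lower at 5 °C than at 1 °C in 14 members, higher in 0 and not called in 52, with a median difference of −0.42, against 8.14% of all genes lower and 10.2% higher. Of the 14, 10 changed more in size at 1 °C, and MRPL9, MRP1, RSM24 and RSM23, the other 4, changed more at 5 °C, where MRPL9 was at −0.66 against −0.05 at 1 °C. The 1447 shorter other genes had a median of −0.30, and with the length trend removed the members' median was −0.21. MRPS35 (mS45) is an example with small errors, at a difference of −0.86 (SE 0.180, adjusted p = 8.00e-04). At 1 °C it had 202, 155 and 162 (6 h) and 199, 218 and 191 (48 h), which overlapped, and at 5 °C 227.5, 178 and 193 (6 h) and 155, 134.5 and 129 (48 h), which did not. The largest differences were those of MRP35 (bL35), at −1.19 (SE 0.420, adjusted p = 0.0401), MRP10, at −1.14 (SE 0.381, adjusted p = 0.0308), and MRPL44 (mL53), at −1.02 (SE 0.314, adjusted p = 0.0188). At 1 °C, MRP35 had 410.5, 260.2 and 153 (6 h) and 386, 386 and 456 (48 h), with replicate 3 lowest at 6 h. The count was 0 without replicate 2, 3 without replicate 3 and 0 with S. pombe reads as library size (0.5% of all genes).

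At 6 h, labelled mRNA at 1 °C and 5 °C was compared directly. Relative to other labelled mRNAs, 11 members were higher at 1 °C, 9 lower and 46 not called, with a median of −0.04, against 27.5% and 24.9% of all genes. Without replicate 1 the number higher was 4, and without replicate 2 it was 6. With summed mRNA reads as library size 21 were higher and 2 lower, against 39.1% and 16.9% of all genes. With S. pombe reads 24 were higher and 0 lower, against 46.3% and 2.52%. RSM27 led with 1.20 (SE 0.306, adjusted p = 0.000894), from 48.0, 68.8 and 57.4 at 5 °C to 237, 117 and 129 at 1 °C. MRPS18 (uS11) was higher by 0.66, from 95.9, 118 and 103 to 264, 212.5 and 148, followed by RSM22 with 0.64 and MRPS17 (uS17) with 0.63. In RSM27 and MRPS18 the temperatures did not overlap. MRP10 was lower, at −1.23 (SE 0.273, adjusted p = 0.000163), with 252, 283 and 215 at 5 °C and 211, 80.7 and 90.95 at 1 °C. MRP21 was at −0.85, with 134.5, 140 and 116 at 5 °C and 99.4, 106 and 62.7 at 1 °C. MRPL32 was at −0.65 and MRPL28 (mL40) at −0.60, and these 2 turned to 0.08 and 0.25 with S. pombe reads.

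Labelled mRNA was also compared with steady-state mRNA of the same temperature, relative to the other genes of each library. At 1 °C, 3 members were higher in 6 h labelled mRNA, 9 were lower and 54 were not called, with a median of −0.18, against 17.1% and 20.9% of all genes. Without replicate 2, 1 member was higher. The shorter other genes, with a median of −0.51, lay further down. MRPL33 was lowest, at −1.90 (SE 0.361, adjusted p = 0.000534), with 366, 390.5 and 173 in labelled and 821.5, 701 and 801 in steady-state mRNA. It was followed by MRPL44 at −1.36, MRPS16 at −1.22 and MRPL32 at −1.20. RSM25 (mS23) was higher by 0.59, RSM22 by 0.54 and MRPL3 (mL44) by 0.53, the last at −0.0032 with S. pombe reads as library size. At 5 °C, 15 members were higher in labelled mRNA, 1 was lower and 50 were not called, with a median of 0.29, against 19.3% and 18.6% of all genes. MRPL15 (mL57), a relative of ribonuclease III, was higher by 1.01 (SE 0.197, adjusted p = 0.000572), with 245, 239.5 and 246 in labelled and 89.99, 93.9 and 92.2 in steady-state mRNA. RSM26 was higher by 0.95, MRPL3 by 0.94 and MRP1 (mS43), like RSM26 a relative of superoxide dismutases, by 0.84. MRPS16 was the one lower at 5 °C, at −0.997, with 178, 209 and 165 against 258, 309 and 292.5. Without replicate 1 there were 5 members higher at 5 °C, without replicate 2 there were 6, and with S. pombe reads 0 (2.09% of all genes). At 30 °C, 0 members were higher in mRNA labelled for 20 min and 3 were lower, MRPS12 at −0.62, MRPL24 (bL28) at −0.61 and MRPL20 (mL58) at −0.60, against 13.2% and 15.6% of all genes, and 0 were lower without replicate 3. As rescaled TPM, MRPS12 was at 253, 231 and 200.5 in labelled and 220.2, 204 and 221 in steady-state mRNA, which overlapped. With summed mRNA reads as library size 0 members were lower and 11 higher, against 8.28% and 39.1% of all genes.

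Fitted half-lives of member mRNAs with low GSH were longer at 1 °C than at 5 °C, and with high GSH the order of the means was the opposite, with cultures that overlapped. The fit took constant synthesis and first-order decay of mRNA labelled up to 48 h, as TPM over the summed TPM of S. pombe. Libraries with the same replicate number were joined as 1 culture, which the labels do not state. With low GSH, the median member half-life in the 3 cultures was 8.54, 16.0 and 12.8 h at 1 °C and 4.08, 2.40 and 8.105 h at 5 °C. The temperatures did not overlap, by a small margin. The means were 12.4 ± 3.74 h and 4.86 ± 2.93 h (SD, n = 3), where all genes had 8.72 ± 1.08 h and 4.645 ± 3.11 h, and no member reached a bound of the fit (0 of 66). At 1 °C, 53 of 66 members lay above the all-gene median, and at 5 °C 34 did. The shorter other genes had 13.8 h at 1 °C and 6.17 h at 5 °C, both above the members. Including 96 h in the fit reversed the order, to means of 8.16 h (1 °C) and 13.2 h (5 °C). With high GSH the half-lives were 10.9 ± 3.44 h at 1 °C, with 7 members at a bound, and 28.8 ± 31.5 h at 5 °C, with 15 at a bound and cultures at 64.8, 15.7 and 5.98 h. The culture at 64.8 h was replicate 1, whose fit lacked the libraries at 3 h and 12 h. The high GSH mean at 5 °C, and its order against 1 °C, thus leaned on this culture. The part of the missing times was not tested.

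The members' half-lives varied more between genes than their subunits did. At 5 °C low GSH the large subunit had 4.97 ± 2.85 h and the small 4.74 ± 3.04 h. The shortest were those of RSM26, at 1.70, 1.10 and 2.72 h in the 3 cultures, MRPL9, at 2.05, 1.28 and 3.76 h, MRP1, at 2.76, 1.21 and 5.39 h, MRPL35 (mL38), at a mean of 3.165 h, and MRPL20, at a mean of 3.27 h. The longest were those of MRPL50, at 8.77, 8.395 and 17.1 h, RSM27, at 7.895, 4.16 and 19.3 h, MRPL32, at 8.73, 7.17 and 13.0 h, MRPL33, at a mean of 9.57 h, and MRPL6, at a mean of 9.16 h. In each culture RSM26 and MRPL9 were below MRPL50, MRPL32 and RSM27. Culture 3 had the longest half-life for each of these members whose values are given. At 1 °C, RSM22 and MRPL7 (uL5) had the shortest at 6.497 ± 1.36 and 6.54 ± 0.967 h, and RSM27, MRPL32 and MRPS16 the longest at 56.3 ± 41.5, 38.8 ± 21.7 and 38.6 ± 18.6 h. The half-life fit and the change from 6 h to 48 h use the same labelled libraries, so one is no support for the other. Among other genes, the 773 with the Puf3-type element had a median half-life of 9.41 h at 1 °C (10th to 90th percentile 5.07 to 23.9 h), and the 4963 without it 9.13 h (4.54 to 32.5 h), which is a description with no test.

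**Figure D5:**
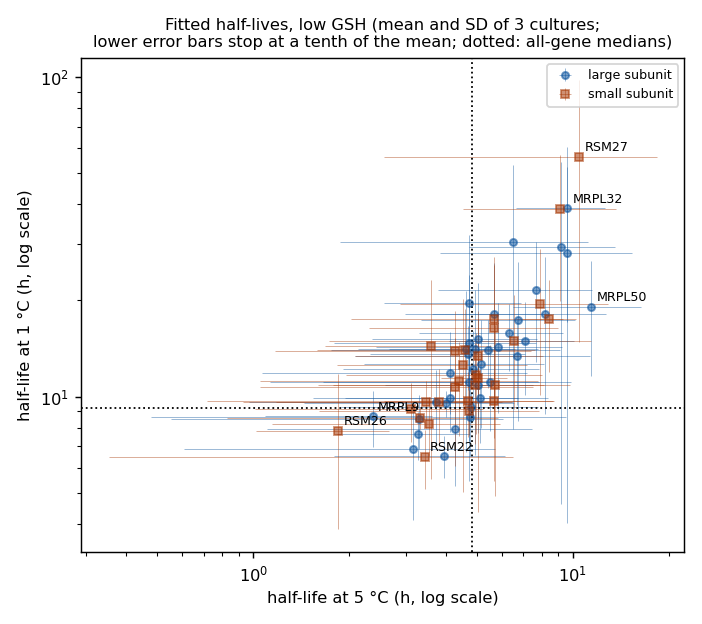
Fitted half-life (h, log scales) of each member at 1 °C against 5 °C with low GSH (points: mean of 3 cultures, lines: SD, with lower ends stopping at 0.1 of the mean, dotted: all-gene medians). RSM26 at 1.84 h lies at the left edge and MRPL50 at 11.4 h at the right edge of the 5 °C axis, and RSM27 at 56.3 h is highest at 1 °C.

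Other genes of mitochondrial translation were placed beside the members, as lists of their known roles. One list held 14 other mitoribosomal proteins, whose symbols fall outside the naming rule, once KGD4 was left out, a subunit of the alpha-ketoglutarate dehydrogenase listed under an alias as a ribosomal protein and left out after its values were seen. Of the 14, 8 were higher and 0 lower at 1 °C than at 5 °C in steady-state mRNA (median 0.41), 6 higher and 2 lower at 1 °C than at 30 °C (0.20), and 1 higher and 5 lower at 5 °C than at 30 °C (−0.19). With KGD4, whose log2 fold change at 1 °C was −0.77 against 5 °C and −0.71 against 30 °C, the 15 genes had 1 and 3 lower in the first and second of these comparisons. IMG1 (bL19) among them was higher at 1 °C than at 30 °C by 0.89 (SE 0.0911, adjusted p = 5.89e-07). Of 19 genes of mitochondrial tRNA synthetases and tRNA modification, 12 were higher and 1 lower at 1 °C than at 5 °C (0.39), and 13 higher and 3 lower at 1 °C than at 30 °C (0.39), led by MSK1, the mitochondrial lysyl-tRNA synthetase, with 1.355 (SE 0.0696, adjusted p = 5.02e-10). Between 1 °C and 5 °C, 5 of 9 translation factors tested (median 0.37), 4 of 8 assembly and rRNA modification genes (0.36), 4 of 6 genes of membrane insertion (0.27, with 1 lower), 5 of 15 translational activators (0.20) and 3 of 4 genes of mitochondrial transcription and RNA decay (0.43) were higher, against 29.8% of all genes, a share to which that of the translational activators was close. None of these lists other than that of membrane insertion had a lower gene in that comparison (0 of 9, 0 of 8, 0 of 15 and 0 of 4). Of the 10 mitochondrially encoded genes listed, 0 were tested.

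The respiratory chain and the ATP synthase, which hold most products of the mitochondrial ribosome, moved the other way between 1 °C and 5 °C on the TMM scale. Their list also takes in genes of parts without such a product, among them SDH1, NDI1, NDE2 and CYC1. Of the 37 nuclear genes listed, 1 was higher and 30 were lower at 1 °C than at 5 °C, with a median of −0.57, which turned to 0.75 with S. pombe reads as library size. Against 30 °C, 3 were higher and 33 lower at 1 °C (median −1.33, or 0.97 with S. pombe reads), and 5 higher and 28 lower at 5 °C (−0.70, or 0.26). QCR6 and CYT1, both of complex III, were at −2.49 and −2.23 between 30 °C and 1 °C on the TMM scale. In labelled mRNA the same genes gained over time at both temperatures, with 35 higher at 48 h than at 6 h at 1 °C (median 1.11) and 30 at 5 °C (0.83) and 0 lower at either. Of all genes, 25.4% and 18.4% were higher with low GSH. The fitted half-lives of the respiratory genes were 23.25 ± 11.1 h and 11.9 ± 2.53 h with low GSH, above those of the members. At 1 °C 10 of the 37 reached a bound of the fit, and at 5 °C 0 did. The 130 cytosolic ribosomal protein genes were lower against 30 °C, 128 of them at 1 °C (median −1.54, or 0.74 with S. pombe reads) and 129 at 5 °C (−1.95, or −0.99), while 67 were higher and 2 lower at 1 °C than at 5 °C (0.39). In the list of the HAP complex and Puf3, 3 of 5 genes were higher and 1 was lower at 1 °C than at 30 °C. HAP4, the regulated subunit of the HAP activator, was at −3.00 (SE 0.116, adjusted p = 4.55e-11), and PUF3 at 0.45 (SE 0.102, adjusted p = 0.00103).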

How the data were processed

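Total RNA of yeast cultures was sequenced as stranded libraries after depletion of ribosomal RNA, as labelled and as steady-state RNA. The authors quantified each library with Salmon 1.5.1 against 6804 S. cerevisiae and 6896 S. pombe transcripts together, and the submitters' processing notes name R64. The deposited TPM values are relative to the transcripts of both yeasts, and the deposited estimated counts are reads per transcript that need not be whole. Member gene lengths equal their coding lengths, so no untranslated region is counted.

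After rounding, the estimated counts went into the quasi-likelihood test of edgeR 4.0.16 (TMM, filterByExpr, Benjamini-Hochberg over all genes tested, threshold 0.05, R 4.3.3). Steady-state libraries entered 1 fit of 15, and all 66 members passed the filter in each fit. Libraries of a culture at different times were treated as independent. The fits of labelled RNA ran over 5802 genes by time, 5807 for GSH and 5740 against steady state. TMM centres fold changes on the bulk of the genes, so they differ from those of a share of mRNA. Summed mRNA reads, S. pombe reads, RLE factors, DESeq2 1.42.0, no filter on low counts, leaving out each replicate number, a replicate block and removal of the coding-length trend were alternatives, the last added after seeing the data for comparisons other than those over time. Half-lives were bounded between 0.1 times the first and 20 times the last labelled time. The scripts were tested on simulated data (Python 3.11.15, numpy 2.4.6, pandas 2.3.3, scipy 1.17.1, matplotlib 3.10.9).

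Per comparison, the named members are the 4 largest rises and the 4 largest falls that passed, plus the 5 highest and 5 lowest levels at 30 °C and the 5 longest and 5 shortest half-lives at 5 °C, and of other lists up to 2 genes a comparison by adjusted p. RSM19 as a sequence, MRPL44 for its intron and the half-lives at 1 °C were picked after their values were seen. The members and the lists were chosen with earlier results of these data known.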

Additional observations from a re-analysis of the deposited data

Results flagged for a closer look

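The change in labelled mRNA between 6 h and 48 h with low GSH differed between 5 °C and 1 °C in 14 members by the interaction term of the edgeR quasi-likelihood fit. The log2 differences, 5 °C minus 1 °C, were −1.187 for MRP35, −1.135 for MRP10, −1.018 for MRPL44, −0.8564 for MRPS35, −0.6995 for MRPS28 (uS15), −0.6786 for MRPL32 and −0.6218 for MRPS16. They were −0.6086 for MRPL9, −0.5784 for MRP1, −0.5723 for MRP51 (bS1), −0.5679 for RSM24, −0.5638 for MRPL1 (uL1), −0.5265 for MRPL22 and −0.4984 for RSM23. In all 14 the signed change was lower at 5 °C, against 8.14% of all genes in that direction. It was larger in size at 1 °C in 10 of them and at 5 °C in 4 (MRPL9, MRP1, RSM24 and RSM23). Without replicate 2 none was called (0), without replicate 3 there were 3, with the replicate number as a block 22, and with S. pombe reads as library size none was called either (0).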

How the results depend on the processing

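Of 82 named results, 714 of 738 alternatives kept the direction, 84 of those no longer passed and 24 reversed. The alternatives were far from equal. With S. pombe reads as library size alone, 23 of the 82 reversed, 19 no longer passed and 40 stayed the same. RLE factors and DESeq2 changed no named call. Of the counts of members, they moved 1 by over 1.5 times, that of members lower at 20 min and 30 °C, from 3 to 5 and 7, and others by less, such as the 14 members of the difference between temperatures, which were 16 and 17. With S. pombe reads as library size, members higher and lower were 66 and 0 (1 °C against 30 °C), 31 and 0 (5 °C against 30 °C), 66 and 0 (1 °C against 5 °C, both GSH levels), 66 and 0 (48 h against 6 h at 1 °C, both GSH levels), 25 and 0 at 5 °C low GSH, 64 and 0 at 5 °C high GSH, 0 lower for the difference between temperatures, 24 and 0 (6 h, 1 °C against 5 °C), and 0 and 5, 0 and 0, and 0 and 0 for labelled against steady state at 1, 5 and 30 °C. Of all genes, the shares higher on that scale were 93.6%, 59.7%, 86.4% (low GSH) and 83.5% (high GSH) in these steady-state comparisons. For the times they were 85.6% and 82.0% at 1 °C (low and high GSH) and 42.5% and 89.4% at 5 °C. At 6 h the share higher was 46.3%. Shares lower were 0.5% for the difference between temperatures, and 8.78%, 2.93% and 1.88% for labelled against steady state. With summed mRNA reads they were 56 and 1, 18 and 14, 61 and 0 with low and 60 and 0 with high GSH, 1 and 11 lower for the times at 1 and 5 °C low GSH, 21 and 2 at 6 h, 5 lower at 1 °C, 25 higher at 5 °C, and 11 and 0 at 30 °C.

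Values that reversed with S. pombe reads were MRP21 1.29, MRPL39 1.34, MRP10 1.59 and MRPL6 1.79 (1 °C against 30 °C; MRPL6 also 0.11 with summed reads), MRP2 0.0563 (5 °C against 30 °C), MRP10 0.85 and MRPL23 0.87 (1 °C against 5 °C), RSM22 1.15 and MRPL7 1.18 (times, 1 °C low GSH), RSM26 0.0802, MRPL9 0.16, MRP4 0.37 and RSM23 0.40 (5 °C low GSH), RSM22 0.77, RSM26 0.91 and MRPL35 1.06 (1 °C high GSH), MRPL9 0.70, RSM26 0.70, MRPL35 1.02 and MRPL17 1.07 (5 °C high GSH), MRPL32 0.0790 and MRPL28 0.25 (6 h), and MRPL3 −0.0032 (labelled against steady state). With the coding-length trend removed, member medians turned to −0.0064 (times, 1 °C high GSH), 0.0336 (1 °C) and 0.1345 (30 °C, labelled against steady state).

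Without each replicate in turn, members lower at 1 °C against 30 °C were 7 to 17, and lower at 1 °C against 5 °C 0 to 1 at both GSH levels. For the times, higher and lower were 19 to 35 and 0 to 2 (1 °C low), 2 to 7 and 3 to 7 (5 °C low), 3 to 8 and 2 to 7 (5 °C high), and 1 to 4 lower at 1 °C high GSH, and 0 to 16 lower for the difference between temperatures. Members higher were 4 to 9 (6 h), 1 to 2 (labelled against steady state, 1 °C) and 5 to 15 (5 °C), and lower 0 to 2 at 30 °C. Including 96 h, half-lives were 8.16 h (1 °C) and 13.2 h (5 °C). The share was 0.609, 0.372 and 0.361% (1, 5 and 30 °C) from reads, and 0.609, 0.3355 and 0.3145% over all S. cerevisiae transcripts. The cause of these moves was not tested.

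Same-numbered libraries were checked for pairing: correlations of their deviations ranged from −0.144 to 0.387. All 3 were over 0.1 in 0 of 16 comparisons, so the tests did not pair by number, although in 5 of the 16, both steady-state comparisons of GSH among them, every library correlated best with its own number. The half-life fits join libraries by number. With the replicate number as a block, the difference between temperatures had 22 members lower, 1 °C against 30 °C stayed at 26 higher and 13 lower, and no call of a named member changed.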
